A study of Mus musculus with 3 samples.

Results

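Heat shock proteins and chaperones were described in activated regulatory T cells, or Treg cells, which depend on the transcription factor Foxp3 and hold back other immune cells. The members were chosen by name from GENCODE M21: protein-coding genes whose symbol begins with Hsp or Dnaj, or with Cct and a digit, without the matrix proteoglycan gene Hspg2. This gave 82 of 55536 annotated genes, and of 22028 protein-coding genes. Polyadenylated RNA came from 1 biosample of 1 male donor mouse aged 9 weeks and was sequenced as 3 technical libraries, called libraries 1, 2 and 3 here. The labels do not state the activation or sorting, and there was no second group, so the comparisons are between genes of the same cells. Levels are in TPM, the share of all transcripts that came from a gene, corrected for transcript length and scaled to a fixed total, given as mean ± SD with n = 3 libraries. This SD is technical and says nothing about variation between mice.

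Chaperones bind stretches of protein that are not yet folded, or no longer folded, and keep them from aggregating. HSP70 proteins hold and release short stretches in a cycle of ATP hydrolysis; J-domain proteins, encoded by the Dnaj genes, bring them clients and start the hydrolysis, and exchange factors reset the cycle. HSP90 proteins act later and keep signalling proteins active, among them the T cell kinase Lck, while the CCT ring encloses actin and tubulin and the HSP60 ring with its lid serves the mitochondrial matrix. Under heat or proteotoxic stress the factor Hsf1 raises the inducible members of these families through the heat shock element, and load on the endoplasmic reticulum (ER) raises ER chaperones through a separate element.

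The libraries held 31445344, 32612609 and 37259281 expected counts in libraries 1, 2 and 3. All 4 T cell markers and all 4 Treg markers were detected, Foxp3 at 138, 133 and 134 TPM. Markers of other cells were present too: their summed level was 9.73 to 17.0 TPM for 4 B cell genes, 38.6 to 43.1 TPM for 4 macrophage genes, 0.21 to 14.7 TPM for 3 granulocyte genes, 22.0 to 24.4 TPM for 2 CD8 genes and 364 to 515 TPM for the 2 globin genes Hbb-bs and Hba-a1. The granulocyte genes S100a8 and S100a9 were at 7.76 and 5.77 TPM in library 1 and at or below 0.28 TPM in the others. What part RNA of such cells has in the chaperone levels was not tested. In bulk RNA, fewer cells that express a gene and less of its RNA per cell cannot be told apart.

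Most of the chaperone genes were expressed. Of the 82 members, 65 (79.3%) reached 1 TPM in every library, the level called detected here, against 10429 of 22028 protein-coding genes (47.3%). The median was 24.6 TPM over the members and 0.808 TPM over all protein-coding genes. Among detected genes only, the medians were 46.0 TPM for members and 29.2 TPM for all protein-coding genes. From 100 TPM upward stood 21 members (25.6%), against 8.20% of all protein-coding genes. A further 33 members lay between 10 and 100 TPM, 11 were detected below 10 TPM and 17 were not detected. Just inside the limit was Dnajc28, at 1.13, 2.25 and 1.19 TPM in libraries 1, 2 and 3. Just outside it was the small heat shock gene Hspb1, at 0.40, 1.45 and 1.13 TPM.

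Together the members had 7811, 7656 and 7795 TPM, a mean of 7754 ± 85.6, or 0.775% of all TPM. The sum was spread very unevenly. The 10 highest members held 59.1% ± 0.243 of it, and Hspa8 alone 21.8% ± 0.389. By family, HSP70 genes with the related Hsph1 held 32.5%, Dnajc genes 20.7%, Cct genes 17.2% and HSP90 genes 14.3%. Dnaja and Dnajb genes held 5.77% and 5.74%, the mitochondrial pair Hspd1 and Hspe1 held 2.59%, and small heat shock genes only 0.321%.

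**Figure D1:**
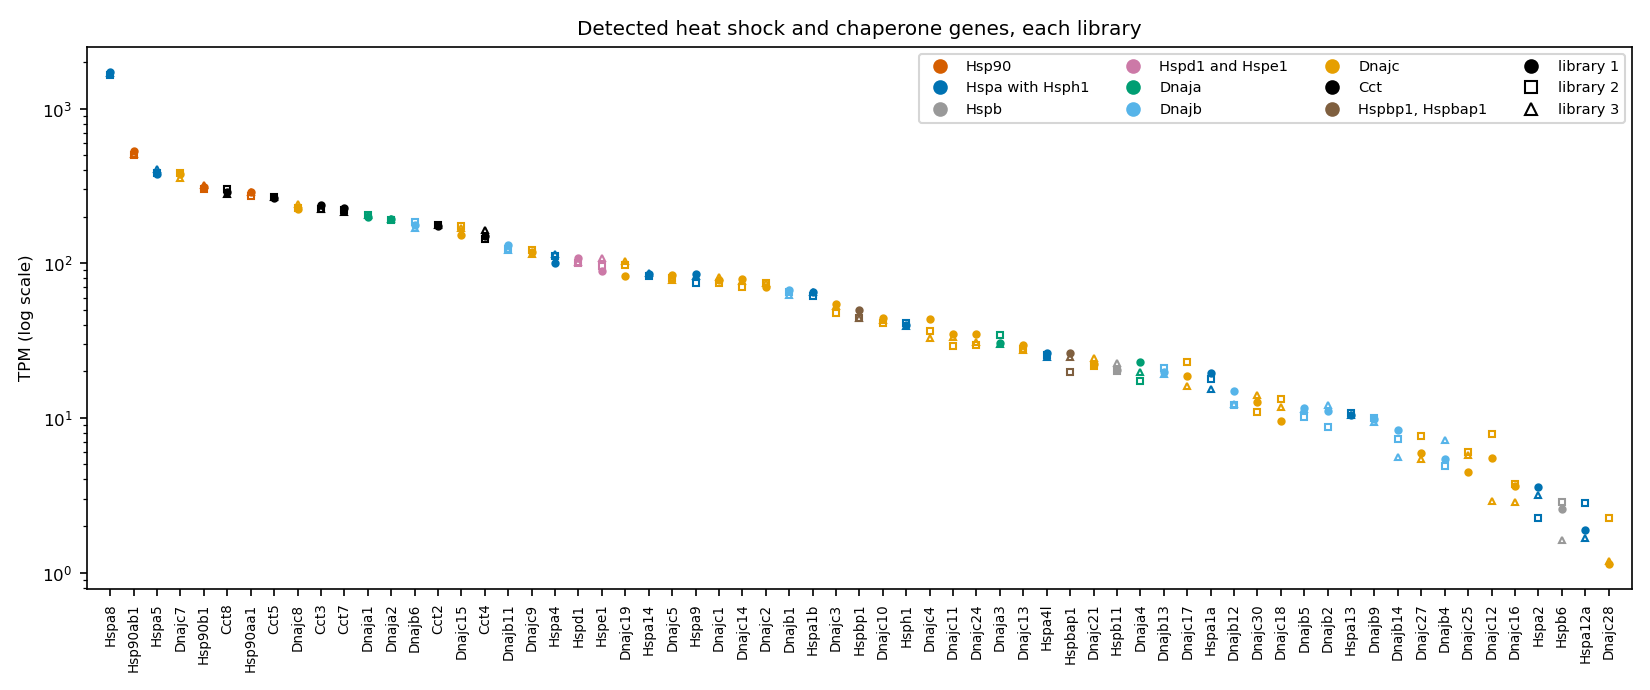
Level of each of the 65 detected members (TPM, log scale) in libraries 1, 2 and 3, ordered by mean and coloured by family. Hspa8 stands alone at the top near 1694 TPM, the next 20 members lie between 104 and 513 TPM, and the 3 symbols of a gene spread apart mainly below 10 TPM.

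Hspa8 encodes the constitutive cytosolic HSP70, which folds new proteins and also strips clathrin from coated vesicles. It had 1733, 1639.7 and 1710.0 TPM in libraries 1, 2 and 3, and no other member came near it in any library. Much of its transcript also occurs in pseudogenes, and its rank did not hold in the smaller gene table described with the shared sequence. The gene lies on mm10 chromosome 9, 40800984 to 40810087, plus strand. The next HSP70 gene was Hspa5, which encodes the ER chaperone BiP, at 378, 382 and 406 TPM. Hspa8 exceeded it by 2.12 ± 0.06 on the log2(TPM + 1) scale, beyond the spread between libraries, though the ratio was 1.33 without the length correction, 1.49 on protein_coding transcripts and -2.03 in the smaller table. A pair of genes was called different beyond the spread when its 3 log2 ratios shared a sign and averaged more than 2 SD from 0; with 3 libraries an exact sign-flip test cannot go below 0.25, so no p is given.

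The stress-inducible cytosolic HSP70 genes Hspa1b and Hspa1a were far lower than Hspa8. Hspa1b had 65.6, 61.0 and 65.5 TPM, and Hspa1a had 19.6, 17.8 and 15.4 TPM. Hspa8 exceeded Hspa1b by 4.70 ± 0.02 (log2), by 3.77 without the length correction, by 4.02 on protein_coding transcripts and by 1.75 in the smaller table. Hspa1a was below Hspa1b by a log2 ratio of -1.81 ± 0.18. Both genes are on the minus strand of chromosome 17 with start sites 12918 bases apart, and much of their transcripts is identical, so how the reads were divided between them is uncertain. Their testis-enriched neighbour Hspa1l, whose start lies 547 bases from that of Hspa1a on the other strand, was at 0.347 ± 0.0874 TPM.

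The remaining HSP70 genes fell into a middle and a low group. Hspa14, a partner of the ribosome-bound J protein Dnajc2, had 84.5 ± 2.09 TPM, and Hspa9, the mitochondrial matrix HSP70, 80.4 ± 5.70 TPM. Hspa13, a microsomal HSP70, was at 10.6 ± 0.236 TPM. Hspa2, best known from testis, had 2.99 ± 0.660 TPM and Hspa12a 2.13 ± 0.610 TPM, while Hspa12b was at 0.0533 TPM, with counts in libraries 1 and 2. Among the HSP110 genes, whose products exchange the nucleotide on HSP70, Hspa4 had 101, 112 and 115 TPM, and the heat-inducible Hsph1 39.8, 41.1 and 39.5 TPM. The groups did not overlap, and Hsph1 was below Hspa4 by a log2 ratio of -1.42 ± 0.10. The third HSP110 gene, Hspa4l, had 25.5 ± 0.891 TPM.

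The cytosolic HSP90 genes were led by the constitutive form. Hsp90ab1, on chromosome 17 (45567775 to 45573271, minus strand), had 529, 500.2 and 510.2 TPM, the second highest level of any member. Hsp90aa1, the more stress-responsive form, had 287, 273 and 289 TPM. Hsp90ab1 exceeded Hsp90aa1 in all 3 libraries, by 0.86 ± 0.03 (log2). The difference was 1.34 without the length correction, 1.38 on protein_coding transcripts and 1.96 in the smaller table. Hspa8 exceeded Hsp90ab1 by 1.72 ± 0.02, by 1.10 without the length correction, and was below it in the smaller table, at -2.25. Of 16 HSP90 co-chaperone genes listed by role, 15 were detected, with a median of 76.1 TPM. Cdc37, which hands kinases to HSP90, led them at 261 ± 6.15 TPM, followed by Ahsa1, which stimulates the HSP90 ATPase, at 134 ± 4.81 TPM and Stip1, which links HSP70 to HSP90, at 119 ± 8.66 TPM. The muscle myosin chaperone gene Unc45b had 0 counts in every library.

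Among the ER members, Hspa5 and Hsp90b1 were among the 10 highest, while Dnajb9 (9.74 ± 0.317 TPM) and Hspa13 were below the members' median. Hsp90b1, the ER form of HSP90 (GRP94), had 310.0, 300.2 and 322 TPM, and Hspa5 exceeded it by 0.32 ± 0.03 (log2), but not in the smaller table, where the ratio was -0.11. The ER J protein gene Dnajb11 had 131, 123 and 121 TPM, and Dnajc3, whose product works with BiP and restrains a kinase that slows translation, 54.6, 47.6 and 52.5 TPM. Dnajb11 exceeded Dnajc3 by 1.26 ± 0.08, a direction that rests on the length correction, since the log2 ratio of reads alone was -0.16. All 13 listed ER folding and stress genes that are not members were detected, from 32.8 ± 2.23 TPM for the stress factor Ddit3 to 650 ± 23.2 TPM for the disulfide isomerase gene Pdia3. The lectin chaperone gene Calr had 527 ± 13.5 TPM and P4hb, another disulfide isomerase gene, 208 ± 12.4 TPM.

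Promoter windows, from 250 bases before to 50 bases after each annotated start on GRCm38.p6, were taken from RefSeq and held 67 of the 82 members. The ER stress element, searched on both strands as CCAAT, 9 free bases and CCACG, is the sequence through which ER load is known to act on these genes. It occurred in 3 members (4.48%), Hspa5, Hsp90b1 and Dnajc3, against 37 of 27025 genes in the table (0.137%). This motif was chosen after the levels had been seen, and the matches describe letters, not binding. The matched stretches are shown because the members that carry them are the ER chaperones just described. Capitals mark the match, and the Hsp90b1 stretch ends with a second match in the opposite orientation.
Hspa5 (chr2:34772020-34772048, plus strand): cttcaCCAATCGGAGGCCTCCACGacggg
Dnajc3 (chr14:118937822-118937850, plus strand): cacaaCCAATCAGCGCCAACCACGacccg
Hsp90b1 (chr10:86705528-86705661, minus strand): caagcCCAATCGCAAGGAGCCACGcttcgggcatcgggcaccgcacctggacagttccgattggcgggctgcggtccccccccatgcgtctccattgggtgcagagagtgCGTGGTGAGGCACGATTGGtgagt
The Hspa5 stretch also lies in exon 1 of the GENCODE transcript Hspa5-201, which starts farther upstream and held 0.374% of the gene's TPM. Dnajb11 was in the table and carried no match in its window. Hspa8, Hsp90ab1, Hsp90aa1 and Hspa9 had no window, so neither this element nor the heat shock element was searched in them.

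In mitochondria, the HSP60 gene Hspd1 and the gene of its lid, Hspe1, had overlapping levels in TPM. Hspd1 had 108, 100.0 and 102 TPM, and Hspe1 88.8, 95.5 and 109 TPM. The libraries overlapped, and the log2 ratio of 0.09 ± 0.19 was within the spread, with both signs among the 3 libraries. Hspd1 was above Hspe1 beyond the spread by reads alone, without the length correction, at 1.73 ± 0.18, and in the smaller table, at 0.94 ± 0.10. Hspa9 was below Hspd1 by a log2 ratio of -0.36 ± 0.06, and above it in the smaller table, at 1.03. Dnaja3, the J protein of the matrix, had 31.7 ± 2.50 TPM. All 5 listed mitochondrial folding genes that are not members were detected, from Clpb at 15.1 ± 2.58 TPM to the mitochondrial HSP90 gene Trap1 at 52.8 ± 0.792 TPM, with the protease genes Clpp at 43.8 ± 4.69 TPM and Clpx at 36.6 ± 2.02 TPM between them.

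Hspd1 and Hspe1 lie head to head on chromosome 1, with outermost GENCODE start sites 111 bases apart on opposite strands. The annotated spans overlap there, since this Hspd1 start is that of the transcript Hspd1-202. The heat shock element was searched as GAA, TTC and GAA, or TTC, GAA and TTC, each separated by 2 free bases. These forms are reverse complements of each other, so both strands were covered, and overlapping matches were counted. It occurred in 4 of the 67 members with a window (5.97%), Dnajb6, Hspd1, Hspe1 and Hsph1, against 179 of 27025 genes (0.662%). The stretch of Hspd1 and Hspe1 is the same piece of DNA read from either strand and holds 2 overlapping matches, shown in capitals with that of Dnajb6.
Hspd1 (chr1:55088053-55088082, minus strand): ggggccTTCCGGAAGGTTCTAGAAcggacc
Hspe1 (chr1:55088053-55088082, plus strand): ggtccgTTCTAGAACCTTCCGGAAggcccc
Dnajb6 (chr5:29735846-29735870, plus strand): ctccgaGAATCTTCCGGAAcgctag
The shared stretch lies in exon 1 of the minor transcript Hspd1-202 (3.52% of the gene's TPM), and that of Dnajb6 in exon 1 of Dnajb6-201 (24.5% of the gene's TPM). The Hsph1 match lay after the annotated start. The 4 genes with a match had 40.1 to 176 TPM (median 101 TPM), and the 49 detected members with a window and no match 1.52 to 389 TPM (median 37.6 TPM). Hspa8, Hsp90ab1 and Hsp90aa1, without a window, are in neither group. The inducible genes Hspa1a and Hspa1b carried no match to these letters, though both held the shorter GAANNTTC. That shorter pattern, added after the data had been seen, occurred in 16 of 67 members (23.9%) against 9.04% of all genes, and its mirror form TTCNNGAA in 7 (10.4%) against 9.60%.

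Of the factors that read this element, Hsf1 had 59.5, 64.2 and 66.5 TPM. Hsf2 was at 2.58 ± 0.548 TPM, and the remaining 3 of the 5 HSF genes were not detected, Hsf3 being lowest at 0.01 TPM. Among 14 listed HSP70 co-chaperones and exchange factors, 13 were detected, led by the exchange factor gene Bag1 at 198 ± 12.1 TPM, the ubiquitin ligase gene Stub1 at 120 ± 9.04 TPM and Sgta at 82.7 ± 3.06 TPM. Sgtb was lowest at 0.237 ± 0.135 TPM. Of 9 immediate early genes, which respond to cell handling as well as to stimulation, 7 were detected. Junb had 334 ± 14.9, Zfp36 162 ± 7.96 and Ier2 161 ± 5.13 TPM, while Atf3 was at 0.127 TPM. Their part in the chaperone levels was not tested.

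Among the type A and type B J protein genes, Dnaja1 and Dnaja2, whose cytosolic products serve Hspa8, had the highest mean TPM. Dnaja2 exceeded the type B gene Dnajb6 by only 0.12 ± 0.07 (log2), within the spread. On protein_coding transcripts alone Dnajb6 stood first at 164 TPM, against 147 TPM for Dnaja1 and 122 TPM for Dnaja2. Dnaja1 had 199, 205 and 205 TPM, and Dnaja2 193, 192 and 192 TPM. Dnaja1 exceeded Dnaja2 in all 3 libraries, but only by 0.08 ± 0.03 (log2), and without library 3 the difference was within the spread. By reads alone and in the smaller table the sign turned, to -0.23 and -2.47. The heat-inducible Dnajb1 had 66.7, 65.0 and 62.4 TPM, and Dnaja1 exceeded it by 1.64 ± 0.07, by 0.77 without the length correction, and was below it in the smaller table, at -1.20. Dnaja4, the remaining member of the type A genes, had 20.1 ± 2.87 TPM. In the type B genes, Dnajb6, whose product suppresses aggregation, was highest at 176 ± 8.70 TPM, ahead of Dnajb11 and Dnajb1. In the smaller table the order turned, with 0.121 counts per base for Dnajb6, 0.868 for Dnajb11 and 0.430 for Dnajb1. Dnajb13, a gene of motile cilia and sperm tails, was at 20.1 ± 0.899 TPM, and the ER membrane gene Dnajb12 at 13.1 ± 1.51 TPM. Only 26.9% ± 1.09 of the Dnajb13 TPM, and 49.0% of its counts, lay on protein_coding transcripts. The transcript Dnajb13-203, annotated for nonsense-mediated decay, held 69.6% ± 2.96 of its TPM. The other 5 detected Dnajb genes lay between 5.84 (Dnajb4) and 11.04 TPM (Dnajb5), while Dnajb7 and Dnajb3 were below the limit at 0.730 and 0.610 TPM.

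The type C genes, which share the J domain and little else, held 4 of the 21 members from 100 TPM. Dnajc7, a partner of both HSP70 and HSP90, had 380, 385 and 356 TPM. Dnajc8, found with the splicing machinery, had 225, 229 and 241 TPM. The next were Dnajc15, of the mitochondrial inner membrane, with 152, 173 and 170.0 TPM, and the histone chaperone gene Dnajc9, with 118, 122 and 114 TPM. Dnajc19, also of the inner membrane, had 83.0, 98.1 and 103 TPM. Dnajc5, which encodes the cysteine string protein of secretory vesicles, had 80.6 ± 3.17 TPM, and Dnajc7 exceeded it by 2.20 ± 0.05 (log2). That difference was 0.18 by reads alone, without the length correction, 1.59 on protein_coding transcripts and 3.73 in the smaller table. The other 18 detected Dnajc genes lay between 1.52 (Dnajc28) and 77.7 TPM (Dnajc1). Dnajc6, the neuronal auxilin gene, and Dnajc22 were below the limit, at 0.220 and 0.0467 TPM. The members Hspbp1, an HSP70 exchange factor gene, and Hspbap1 had 46.0 ± 3.06 and 23.7 ± 3.38 TPM.

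The CCT ring is built from 8 different subunits present in equal number. Cct8 had 290, 304 and 282 TPM, the highest, and Cct4 had 149, 143 and 165 TPM, the lowest. Between them stood Cct5 at 267 ± 2.00, Cct3 at 229 ± 7.80, Cct7 at 221 ± 7.50 and Cct2 at 176 ± 1.73 TPM. Cct6a is annotated as a processed transcript in M21 and so is not among the 82; it had 224, 232 and 223 TPM. The eighth subunit gene, Tcp1, named by another scheme, had 160 ± 3.71 TPM. Within a library the highest and lowest of the 7 Cct subunits differed by 0.94 ± 0.16 (log2), a ratio of 1.71 to 2.13, and by 0.96 ± 0.13 with Tcp1. The germ cell forms Cct6b and Cct8l1 were at 0.183 ± 0.0306 and 0.0267 TPM. All 9 listed partners of the ring were detected, led by the prefoldin gene Pfdn5 at 397 ± 21.3 TPM and Tcp1, then Pfdn6 at 114 ± 11.6 TPM, with Pdcl lowest at 22.3 ± 3.74 TPM.

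**Figure D2:**
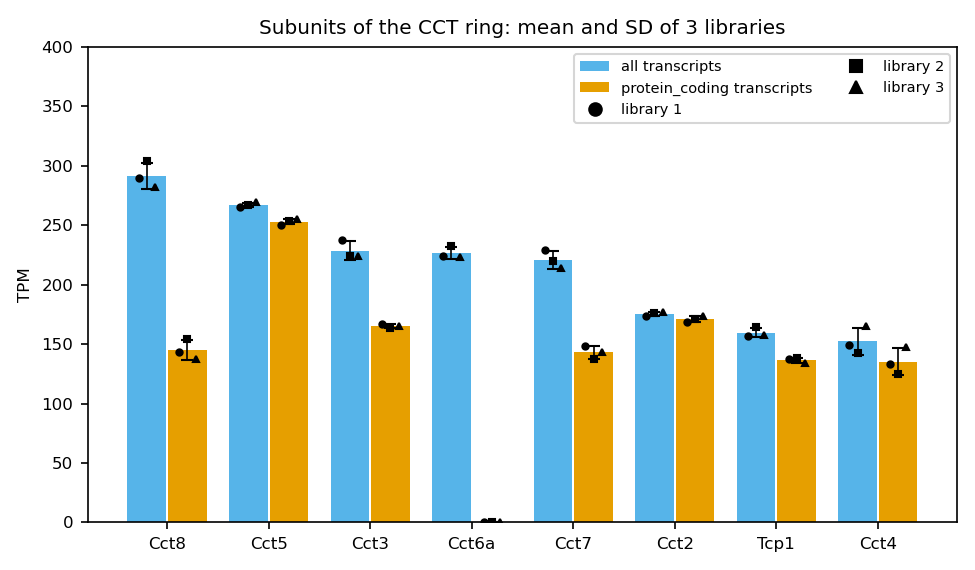
TPM of the CCT ring subunits over all transcripts (blue) and over transcripts annotated protein_coding (orange), bars for the mean, whiskers for the SD and symbols for the 3 libraries. Over all transcripts Cct8 is highest and Cct4 lowest, over protein_coding transcripts Cct5 is highest, and Cct6a has no protein_coding transcript in M21.

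Of the 8 genes named Hspb, for small heat shock proteins, 2 were detected (25.0%), Hspb11 and Hspb6, where 47.3% of all protein-coding genes were. Hspb11, whose product is better known as a subunit of intraflagellar transport, had 20.4, 19.99 and 22.7 TPM. Hspb6 had 2.57, 2.86 and 1.62 TPM. Hspb9 was at 0.527 TPM and Hspb7 at 0.0133 TPM. The 6 members with 0 counts in all libraries were Hspb2, Hspb3, Hspb8, Dnajb8, Dnajc5b and Dnajc5g. In these, 3 counts in each library would have given 0.116 TPM (Hspb8) to 0.232 TPM (Hspb2), so levels below that were not detectable at this depth.

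Neighbours in the order of levels mostly could not be separated. Of the 64 neighbouring pairs among the 65 detected members, 13 differed beyond the spread, and of all 2080 pairs 1935 (93.0%) did. At the top, Hspa8 was above Hsp90ab1 and Hsp90ab1 above Hspa5 by 0.40 ± 0.08 (log2), while Hspa5 and Dnajc7 changed places between libraries. The median coefficient of variation was 6.64% over detected members and 7.69% over detected protein-coding genes. It was 3.50% for the 21 members from 100 TPM and 20.7% for the 11 detected below 10 TPM.

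The expected counts were then compared with counting noise alone, by a chi-square test of equal shares over the 3 libraries with Benjamini-Hochberg adjustment over 15945 genes with a summed count of at least 30. Of 70 members tested, 49 were called at 0.05 (70.0%), where 65.8% of all genes were. At this depth small differences pass, so a size was also asked for. With at least 10% variation beyond counting noise (as a coefficient of variation), 18 members were called (25.7%), where 36.9% of all genes were. After division of the chi-square by the overdispersion shared by all genes (8.61), the same test called 0 members and 1.85% of all genes; 6 members, and 10.3% of all genes, had an unadjusted p under 0.05.

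Variation beyond counting noise fell with depth in members and in all genes. Its median was 4.98% over members tested and 8.49% over all genes tested. Members with a mean count of 1000 to 10000 had a median of 3.54% (38 genes) and all genes of that depth 5.14%. Below a mean count of 100 the 7 members had 46.3% and all genes 30.3%. Among members with a mean count of at least 1000, the estimate was 0 for Dnaja2 and Hspa14 and highest for Dnajc19, at 13.5%. The called members had no common library: 18, 17 and 14 of the 49 were highest in libraries 1, 2 and 3, and 15, 14 and 20 were lowest there.

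**Figure D3:**
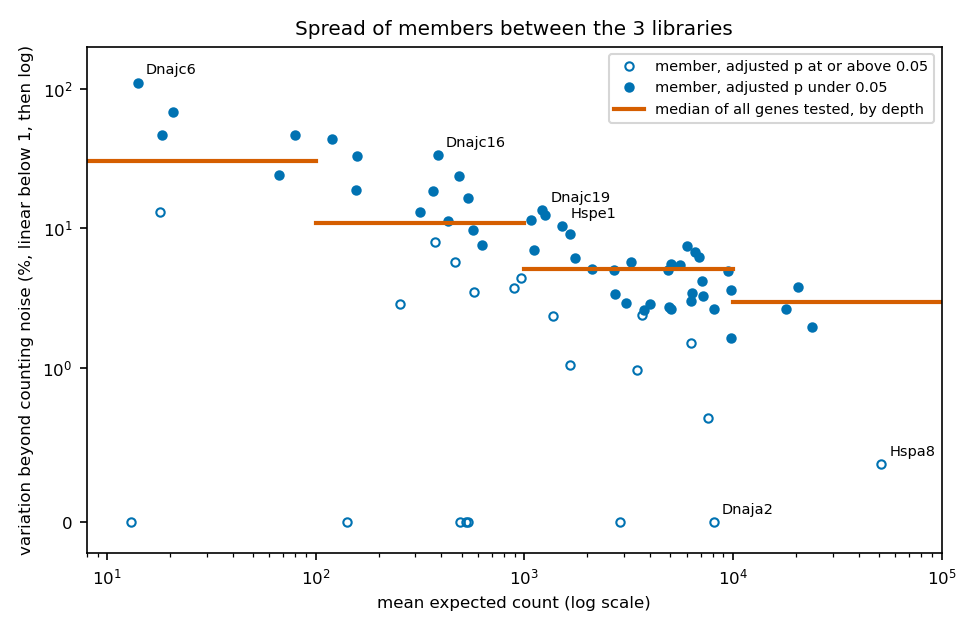
Variation beyond counting noise (%, linear below 1, then log) of the 70 tested members against the mean expected count (log scale), filled where the adjusted p was under 0.05, with the median of all genes tested in each depth range as a line. The deepest member, Hspa8, lies at 0.375%, and Dnajc6, with a mean of 14 counts, at 111%.

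Gene TPM adds up annotated transcripts of every type, and for several members much of it came from transcripts not annotated as protein_coding. Over the 65 detected members the median share on protein_coding transcripts was 86.8%. It was at least 90% in 29 members and under 50% in 9. In 10 members the leading transcript was of another type. TPM gives short transcripts weight, and by expected counts the median was 93.1% and 5 members were under 50%. The leading transcript was another one by counts in 12 members. These shares were not computed over all genes, so whether they are particular to the members was not tested.

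Several abundant members came almost wholly from a single coding transcript. Hsp90b1-201 held 97.2% ± 0.600 of its gene's TPM and Hspa5-202 held 95.5% ± 0.535, and the mitochondrial Hspa9-201 and Hspd1-201 held 97.9% ± 0.334 and 96.4% ± 0.698. The ER gene Dnajc1 had only 12.8% ± 0.877 of TPM on protein_coding transcripts, and 31.3% of counts. Hsp90ab1-201 held 85.9% ± 1.11. For Hspa8 the coding transcript Hspa8-202 held 61.0% ± 0.847 of TPM and 83.6% of counts. A retained-intron transcript of 456 bases (Hspa8-204) held 16.0% ± 1.68, and the processed transcripts Hspa8-203 and Hspa8-209 held 13.5% ± 1.07 and 7.43% ± 0.513. Hsp90aa1-201 held 39.0% ± 3.87, with 35.0% ± 0.620 on the retained-intron transcript Hsp90aa1-206; by counts they held 69.1% and 19.4%.

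Most of the TPM of Dnajc7 was on transcripts not annotated as protein_coding. Its leading transcript, Dnajc7-203, is a processed transcript of 770 bases and held 26.5% ± 0.317, and protein_coding transcripts together held 32.7% ± 2.25. By expected counts the coding Dnajc7-201 led with 30.6%, and protein_coding transcripts held 46.9%. In Cct8, the transcript Cct8-209, annotated for nonsense-mediated decay, held 47.3% ± 1.04, ahead of the coding transcripts Cct8-203 with 22.4% ± 0.787 and Cct8-201 with 20.7% ± 0.274. In Hspa4, the processed transcript Hspa4-203 held 45.1% ± 0.355 and the coding Hspa4-201 35.2% ± 3.04; by expected counts the order turned, with 44.2% and 52.1%. On protein_coding transcripts alone, Hsph1 and Hspa4 were no longer apart, with a log2 ratio of -0.052. The lowest coding share was in Dnajc15, at 1.65% ± 0.219 of TPM and 16.7% of expected counts. There Dnajc15-201 (nonsense-mediated decay) held 55.1% ± 0.870 of TPM. Dnajc19 had 64.6% ± 6.61 on the retained-intron transcript Dnajc19-205, which held 40.0% by counts, where protein_coding transcripts held 59.97%.

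**Figure D4:**
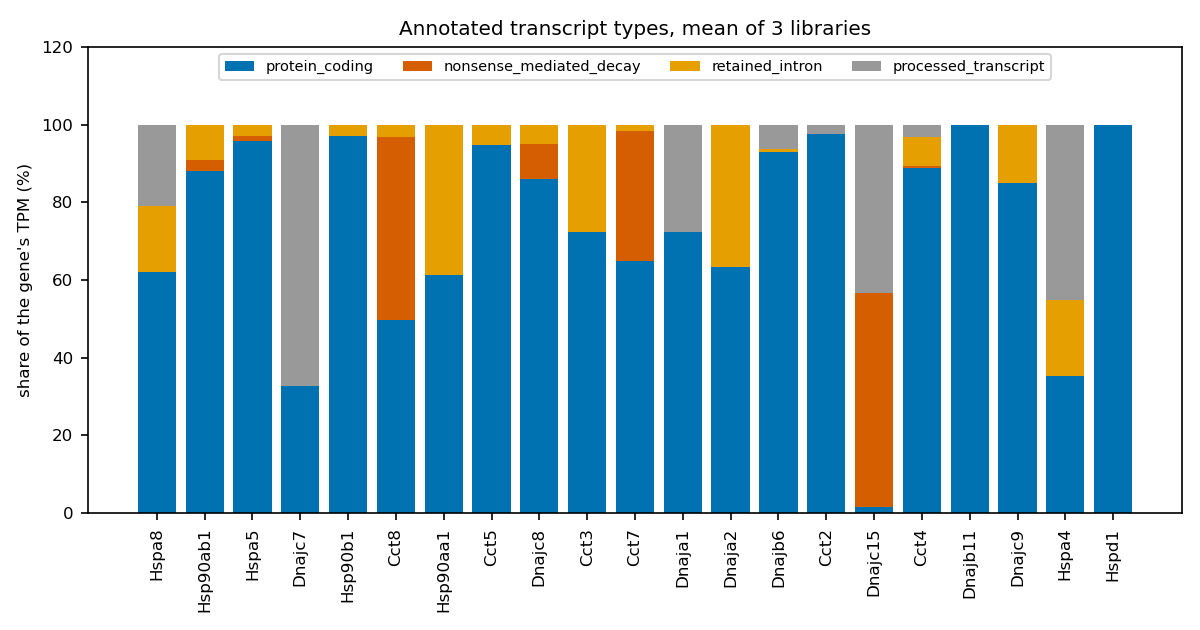
Share of each gene's TPM (%) by the annotated type of its transcripts, mean of 3 libraries, for the 21 members from 100 TPM in order of level. Hspa5, Hsp90b1, Dnajb11 and Hspd1 are nearly all protein_coding, while Dnajc7, Dnajc15, Hspa4 and Cct8 have less than 50% on protein_coding transcripts.

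Many chaperone genes have processed pseudogenes, copies of the spliced transcript placed elsewhere in the genome, and reads from identical stretches cannot be assigned by sequence. Reads were 50 bases long, so each 50-base window of a member's leading transcript by counts was looked up in all other M21 transcripts. Of the 65 detected members, 36 had no shared window, 22 shared windows with a pseudogene, and 13 shared at least 20% of their windows, a limit set after the data had been seen. The same counts were not made over all genes, so whether they are particular to chaperone genes was not tested. Hspa8 shared most: 86.3% of its windows occurred elsewhere, in 12 pseudogenes among others, and 80.6% in Gm15459 alone. The 12 pseudogenes were assigned 2.65, 23.5 and 22.9 TPM in libraries 1, 2 and 3, or 0.966% of Hspa8. Gm15459 itself averaged 14.0 TPM.

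Hsp90aa1 shared 65.6% of its windows with pseudogenes, Hspd1 44.8% and Dnajb6 41.9%. Hsp90ab1 shared 4.49% and Hspa5 none. Hspa1a shared 58.8% of its windows with Hspa1b, and Hspa1b 62.3% with Hspa1a. For Dnaja1, 30.6% of windows were shared, and its pseudogene Gm15542 was given 85.3 TPM, against 203 ± 3.75 TPM for Dnaja1. For Dnajc9, 4.80% of windows were shared with Gm16550, which was given 42.6 TPM. Dnaja4, Dnajc14 and Dnajc30 shared windows with the overlapping coding genes Wdr61 (51.9%), Ormdl2 (26.1%) and Bud23 (24.0%).

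A second, smaller gene table of whole counts on an older annotation held fewer counts over all genes. Its totals were 8827129, 8758421 and 9555924 in libraries 1, 2 and 3, against 31445344, 32612609 and 37259281 expected counts. Members with much shared sequence kept a lower share of their expected counts in the median. The smaller table matched 81 of the 82 members, all but Hspa14. Its count for Hspa8 was 566, 547 and 573 in libraries 1, 2 and 3, or 1.10% of the expected count, and for Dnajc19 21, 17 and 38, or 2.03%. Dnajb6 kept 3.33% and Dnaja1 4.52%. Among detected members with a mean expected count of at least 1000, the 11 with at least 20% shared windows had a median of 8.02% (1.10 to 46.3%), and the 30 others 34.6% (11.3 to 80.0%). The ranges overlapped, and abundant genes without shared windows could also keep a low share there, Hspa5 19.3% and Dnajc5 11.3%. Which part of the reduction comes from shared reads was not tested. In that table, per base of transcript, Hspa8 stood below Hsp90ab1, by a log2 ratio of -2.25, so its first rank did not hold there. For all such ratios and values per base, the length was that of the gene in the larger table, on the newer annotation. This length averaged 1485 bases for Hspa8 and 955 bases for Dnajc7. Their leading transcripts by counts have 2019 and 2330 bases, so values per base also depend on the lengths chosen.

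**Figure D5:**
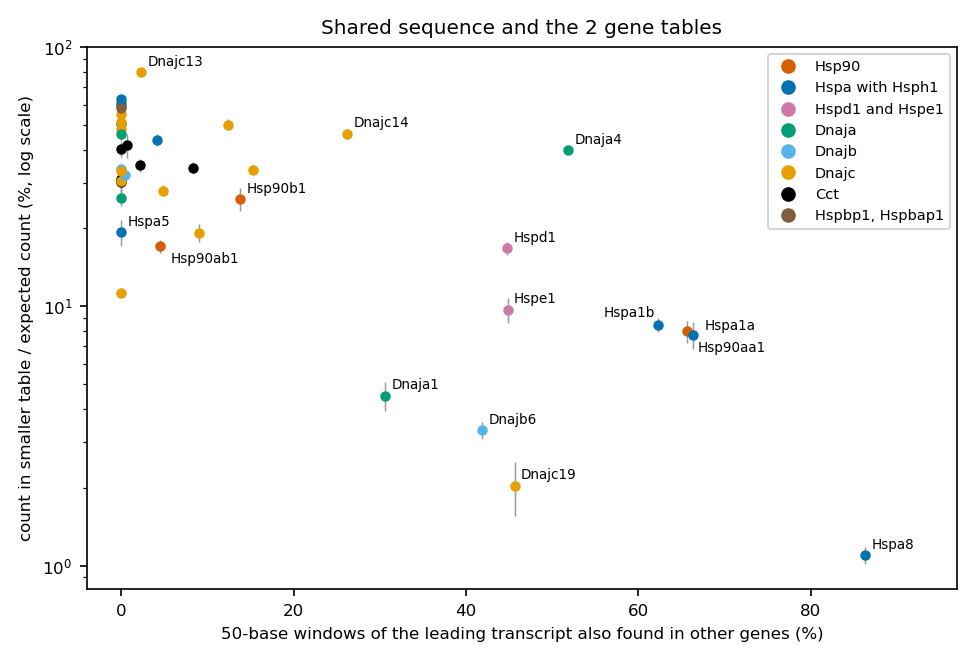
Count in the smaller table as a percentage of the expected count (log scale, mean with SD of 3 libraries) against the percentage of 50-base windows shared with other genes, for detected members with a mean expected count of at least 1000. Hspa8 is lowest and farthest right, at 1.10% and 86.3%, while Dnajc14 and Dnaja4 keep 46.3% and 40.1% despite shared windows.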

How the data were processed

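Per the file headers and labels, the authors deposited for each library a larger gene table and a transcript table on mm10 with GENCODE M21, and a smaller gene table with M4. The larger tables hold expected counts, which split reads among genes and need not be whole, and TPM, deposited already scaled for effective length. The smaller table, also deposited, holds counts that are whole numbers from the values (8827129, 8758421 and 9555924 in libraries 1, 2 and 3). Its treatment of shared reads, the aligner, the quantifier and the strand setting were not given in the sources used here. Rows naming no annotated gene held 0.125%, 0.182% and 0.155% of expected counts and were left out. Without molecular identifiers reads may repeat a molecule, so floors (3 counts) and the chi-square test cover counting error only.

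Members and lists were chosen with earlier results of these data known. Named with values were the 10 highest members, members of the 13 pairs, all Cct, Hsp90, Hspa, Hspb, Hspd1 and Hspe1 genes, the 5 highest of each Dnaj class, the extremes of variation, members at 0, and the highest 3 and lowest of each list; others were chosen after their values were seen. Pairs used log2(TPM + 1). Expected counts were rounded for the chi-square test, which has 2 degrees of freedom. The simulated data on which it was tested held counting noise and set changes only, without the overdispersion of these libraries. Summed expected counts scaled the test, with edgeR 4.0.16 TMM and DESeq2 1.42.0 size factors (R 4.3.3) as alternatives. Python 3.11.15 with pandas 2.3.3, scipy 1.17.1 and statsmodels 0.14.6 was used.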

Additional observations from a re-analysis of the deposited data

How the results depend on the processing

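No paired analysis was possible because the labels give a single group. Of 151 alternative values, 130 were classed as the same. For pair ratios this meant the same call, and the same sign where a pair was called. For counts it meant a change within a set factor, so that keeping 7 of the 10 highest members was classed as the same. For the summed level, the CCT range and the median share it meant a shift smaller than the SD. Without length correction (CPM) the members summed to 8859 instead of 7754, Dnaja1/Dnaja2 and Dnajb11/Dnajc3 turned to log2 ratios of -0.23 and -0.16, Hspa9/Hspd1 shrank to -0.017, Hspd1/Hspe1 became 1.73 and the CCT range 0.73. In the smaller table Hspa8/Hsp90ab1 was -2.25, Hspa8/Hspa5 -2.03, Hspa5/Hsp90b1 -0.11, Hspa9/Hspd1 1.03, Dnaja1/Dnajb1 -1.20, Dnaja1/Dnaja2 -2.47, Hspd1/Hspe1 0.94, the CCT range 0.51, and 20 of 68 members tested varied between libraries (29.4%, where 33.5% of all genes did). On protein_coding transcripts Hsph1/Hspa4 was -0.052. With the shared overdispersion 0 members varied instead of 49. Leaving out a library in turn gave 31 to 34 varying members (31 without library 2, with fewer libraries to compare), or 45.6% to 49.3% of members where 41.1% to 48.6% of all genes were called, and 0.070 to 0.097 for Dnaja1/Dnaja2. By counts the median protein_coding share was 93.1% and 5 members were under 50%. The causes were not tested. The 10 highest members kept 8 by CPM, 8 on protein_coding transcripts (Dnajc7 left both) and 7 in the smaller table. Those that left in the smaller table, per base of transcript, were Hspa8, Hsp90aa1 and Dnajc8. Members with few counts are limited by depth.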
